A study of Mus musculus with 386 samples.

Results

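Glutathione transferases join the tripeptide glutathione to reactive compounds. The genes described here are the members of the alpha, theta, pi, kappa, omega and zeta classes of soluble enzymes and a microsomal enzyme: Gsta3, Gsta4, Gstp1, Gstt1, Gstt2, Gstt3, Gstk1, Gsto1, Gstz1 and Mgst1. A member was measured by the transcript cluster of the array that carries its symbol and no other, and where a symbol has several such clusters by the one with the highest mean. By this rule 9 of the 10 listed genes were found among 18820 genes. For Gstz1 the only cluster also carries Pomt2, so no value is given for it. Gstp1 has 1 cluster of its own, and 2 more that it shares with its near-identical neighbour Gstp2 were not used, so a signal of Gstp2 within the Gstp1 value cannot be told apart from Gstp1. Values are log2 signals after robust multi-array averaging (RMA) on Affymetrix Mouse Gene 1.1 ST arrays. The mice were 23 days old, of both sexes, and the labels name no transgene or treatment. They belonged to the F1 crosses CASTxPWK, PWKxCAST, CASTxWSB, WSBxCAST, PWKxWSB and WSBxPWK, with the dam written before the sire, and to the inbred strains CAST, PWK and WSB, which stem from different house mouse subspecies. All were bred at UNC from mice only a few generations away from Jackson Laboratory founders. RNA came from powdered whole tissue, and there were 85 brain, 102 kidney, 101 liver and 98 lung arrays from 111 animals, with 6 to 13 animals in each cross and tissue.

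Conjugation to glutathione makes electrophiles soluble and ready for export, and the conjugates leave the cell through transporters of the Abcc family before they are trimmed to mercapturates, mainly in the kidney. The classes differ in substrates and location. Alpha enzymes take up products of lipid peroxidation and, in the mouse, the epoxide of aflatoxin. Theta enzymes act on small halogenated molecules. The pi enzyme also binds signalling kinases, the kappa enzyme sits in mitochondria and peroxisomes, and the omega enzyme works as a thiol transferase and reductase. The microsomal enzyme Mgst1 is an integral membrane protein of the endoplasmic reticulum and the outer mitochondrial membrane. Many of these genes are known targets of the transcription factor NRF2, which binds antioxidant response elements, and of nuclear receptors in the liver.

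Markers of 4 main cell types stood highest where the labels put them, with 8 of 8 for neurons in brain, 10 of 10 for proximal tubule in kidney, 9 of 9 for hepatocytes in liver and 8 of 8 for alveolar epithelium in lung. Other lists were less selective, with 0 of 5 choroid plexus markers highest in brain and 3 of 8 pericentral hepatocyte markers highest in liver. Lung had the highest level of 6 of 7 heart muscle genes (median 11.16 log2) and kidney that of 5 of 6 brown fat genes (median 9.84), and the source of this signal was not tested. On 2 arrays the sex genes departed from the label. In the labelled female PWKxCAST brain replicate 9 only Xist did so, with a level of 3.98 beside 3.83 for Eif2s3y. In the labelled male PWKxWSB liver replicate 8 both genes did, with 10.70 for Xist beside 4.53 for Eif2s3y. Leaving both arrays out changed no call of a member. In bulk tissue fewer cells of a type and less RNA per cell cannot be told apart, and base differences among strains at the probe sites are not analysed here.

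Promoter sequences of the members whose results are described at length are given first. RefSeq's table for the GRCm38.p6 assembly, whose sequence is that of C57BL/6J and not of CAST, PWK or WSB, held the stretch from 250 bases before to 50 bases after the start site for 7 of the 9 measured members. Gsta3 and Mgst1 are shown because they had the widest span between tissues. They were also the 2 of these 7 with a match to the antioxidant response element, searched only as TGACNNNGC on both strands and printed in capitals. Other forms of the element were not searched, so the other members may hold them. TGACNNNGC occurred in 12.4% of 32851 mouse promoter entries of the same length, while the members are counted by gene over all their entries. Gstt1 and Gstt3, neighbours on chromosome 10 whose strain differences open the strain results, are shown beside them and held none of the elements searched on both strands, which were also the xenobiotic response element core GCGTG (32.4% of promoters), the TATA box TATAAA (13.6%), the nuclear receptor half-site AGGTCA (16.3%) and the GC box GGGCGG (35.7%). The Mgst1 stretch, the first of 2 entries for this gene, in addition held a GC box, while its second entry held none of the elements searched. The Gstt3 stretch is likewise the first of 2. The Gstt1 stretch lies wholly inside the annotated span of that gene, chr10:75783813-75798584, and not at its outer end. A match is a description of letters and not a site. The stretches lie at chr1:21240335-21240634 (plus strand) for Gsta3, chr6:138140277-138140576 (plus strand) for Mgst1, chr10:75797682-75797981 (minus strand) for Gstt1 and chr10:75781373-75781672 (minus strand) for Gstt3.
Gsta3: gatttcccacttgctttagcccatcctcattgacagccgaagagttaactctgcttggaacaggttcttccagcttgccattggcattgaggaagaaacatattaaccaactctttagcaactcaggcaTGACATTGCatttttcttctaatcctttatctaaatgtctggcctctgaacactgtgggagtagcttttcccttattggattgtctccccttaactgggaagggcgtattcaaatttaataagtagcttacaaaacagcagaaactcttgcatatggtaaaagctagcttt
Mgst1: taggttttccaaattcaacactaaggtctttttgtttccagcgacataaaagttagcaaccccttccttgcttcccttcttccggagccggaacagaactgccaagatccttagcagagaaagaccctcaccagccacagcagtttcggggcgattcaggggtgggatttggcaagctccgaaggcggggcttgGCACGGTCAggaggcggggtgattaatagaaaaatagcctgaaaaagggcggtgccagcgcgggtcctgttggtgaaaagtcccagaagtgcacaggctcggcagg
Gstt1: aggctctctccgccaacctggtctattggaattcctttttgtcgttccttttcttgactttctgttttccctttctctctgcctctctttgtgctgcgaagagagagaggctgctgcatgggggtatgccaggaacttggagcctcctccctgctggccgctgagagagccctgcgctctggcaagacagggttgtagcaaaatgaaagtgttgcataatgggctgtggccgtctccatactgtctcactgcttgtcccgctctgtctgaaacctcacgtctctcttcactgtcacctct
Gstt3: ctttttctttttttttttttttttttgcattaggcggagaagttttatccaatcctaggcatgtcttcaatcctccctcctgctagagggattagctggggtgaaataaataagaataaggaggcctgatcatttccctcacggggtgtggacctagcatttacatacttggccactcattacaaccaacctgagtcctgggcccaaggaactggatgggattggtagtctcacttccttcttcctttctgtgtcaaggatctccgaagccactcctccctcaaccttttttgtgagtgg
In Gsta3 the element starts 121 bases before the start site on the plus strand, and in Mgst1 it starts 56 bases before it and reads on the minus strand.

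Liver was the tissue with the highest mean for 8 of the 9 members, and kidney for Gstt2. Of 54 differences between pairs of tissues, 53 passed limma's test at an adjusted p under 0.05, which is called a difference in what follows. Most genes differed in this way: 96.1% of all 11292 tested genes in brain minus kidney, 96.5% in brain minus liver, 95.3% in brain minus lung, 93.9% in kidney minus liver, 94.6% in kidney minus lung and 96.1% in liver minus lung, so the count of the members is near the background. Gsta3, the alpha enzyme that in mice conjugates the aflatoxin epoxide, had the widest span. Its values in brain lay between 4.28 and 5.78 log2 with a median of 4.69, in kidney between 7.71 and 10.09 (median 8.96), in lung between 8.55 and 10.12 (9.38) and in liver between 11.29 and 12.18 (11.70). The brain and liver arrays did not overlap with those of any other tissue, while kidney and lung did. The brain minus liver difference was -6.97 ± 0.04 (SE), and the kidney minus lung difference was -0.41 ± 0.03 (adjusted p = 1.87e-28). Mgst1 showed the same order, with 6.26 ± 0.31 in brain, 9.08 ± 0.34 in kidney, 10.12 ± 0.18 in lung and 12.38 ± 0.21 in liver (mean ± SD over all arrays of a tissue). Its brain minus liver difference was -6.12 ± 0.03.

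The theta genes, which lie side by side on chromosome 10, did not share an order. Gstt1 stood at 6.46 ± 0.23 in brain, 9.82 ± 0.41 in lung, 9.97 ± 0.47 in kidney and 10.63 ± 0.68 in liver, and Gstt3 at 5.86 ± 0.28, 9.42 ± 0.18, 10.17 ± 0.27 and 10.47 ± 0.83 in the same tissues (mean ± SD). Gstt2 was instead highest in kidney. Its values lay between 10.28 and 11.34 with a median of 10.73 in kidney, against 8.15 to 10.37 (median 9.50) in liver, with a narrow overlap, and the kidney minus liver difference was 1.27 ± 0.03 (adjusted p = 2.90e-147). In brain, Gsta3, Gstt2, Gstt3 and Mgst1 lay below the 40th percentile of all genes, so that 5 members were tested within brain and 9 within each other tissue. Contrasts between tissues used a filter on the mean over all arrays, which kept all 9.

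The remaining members were present in all tissues. Gstk1 stood at 9.25 ± 0.49 in brain, 11.81 ± 0.29 in lung, 12.37 ± 0.21 in kidney and 12.79 ± 0.24 in liver. Gsta4, which clears the lipid peroxidation product hydroxynonenal, stood at 9.55 ± 0.46, 10.78 ± 0.19, 11.33 ± 0.33 and 11.38 ± 0.22 in the same order. Its kidney minus liver difference of -0.05 ± 0.03 (adjusted p = 0.0437) was not called with array weights and turned to 0.03 (adjusted p = 0.174) after quantile normalisation, so the order of these neighbours is not settled. Gsto1 stood at 9.87 ± 0.21 in brain, 10.81 ± 0.23 in lung, 11.16 ± 0.16 in kidney and 11.33 ± 0.16 in liver. Gstp1 was nearly level outside the liver, with 11.24 ± 0.24 in kidney, 11.30 ± 0.20 in brain and 11.35 ± 0.18 in lung, against 12.44 ± 0.30 in liver. The brain minus lung difference of Gstp1, -0.04 ± 0.03, was the only tissue pair that was not called (adjusted p = 0.186).

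**Figure D1:**
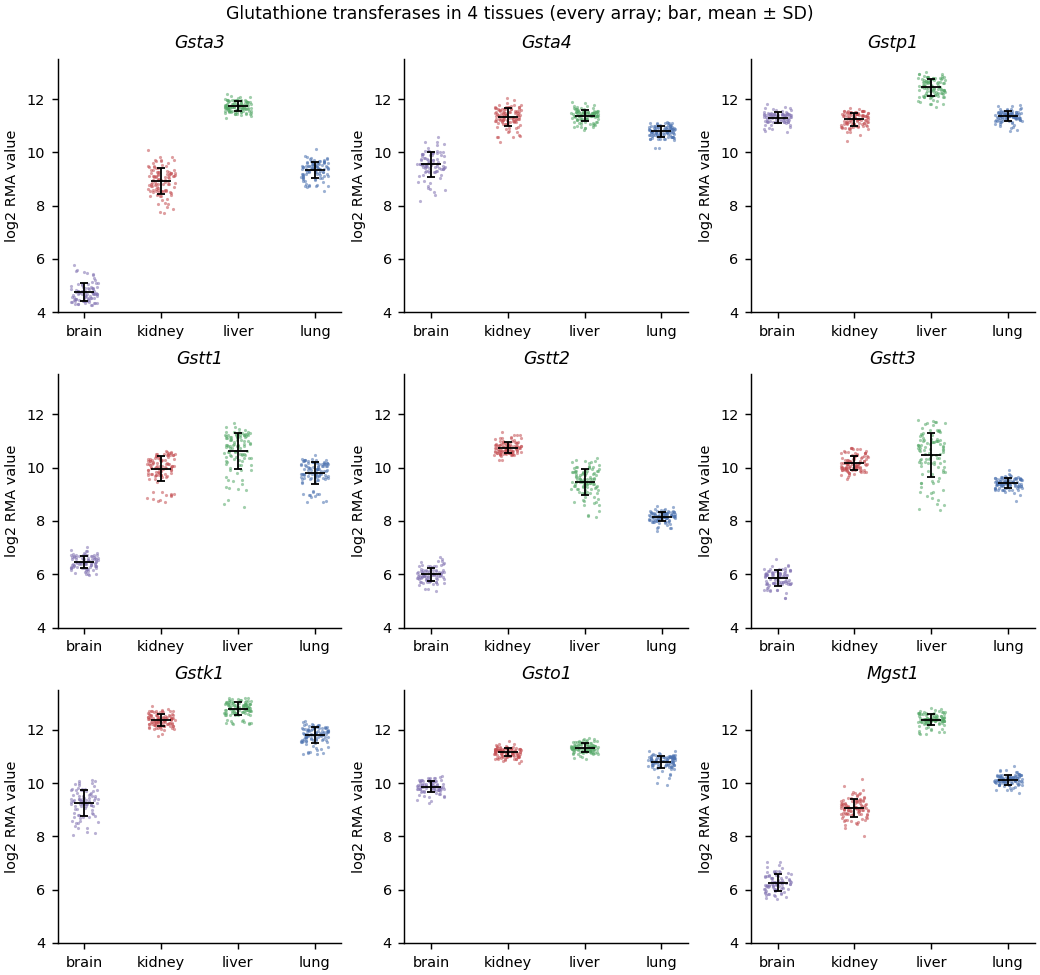
Log2 RMA value of the 9 measured members (vertical axes) in every array of the 4 tissues (horizontal axes), 85 brain, 102 kidney, 101 liver and 98 lung arrays; black bars are the mean ± SD. Gsta3 spans from 4.74 in brain to 11.72 in liver, Gstt2 is highest in kidney at 10.75, and Gstp1 stands apart only in liver at 12.44.

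The inbred strains differed in every measured member in at least 1 tissue, a trait whose share over all genes was not counted. Over the 4 tissues and 3 pairs of strains 76 of 96 differences were called, 38 higher and 38 lower in the strain named first. Of all tested genes 40.4% to 62.7% were called, depending on the tissue and pair. Among the called differences 13 were at least 1 log2 unit, a size for which the share over all genes was not counted. Gstt1, a theta enzyme known for the conjugation of small halogenated compounds, held 6 of these 13. In liver its values in CAST lay between 8.51 and 10.50 log2 with a median of 9.24 (n = 11), against 11.06 to 11.52 with a median of 11.28 in PWK (n = 9) and 10.74 to 11.43 with a median of 11.14 in WSB (n = 13). All CAST livers lay below all PWK and WSB livers, while PWK and WSB overlapped. CAST was lower than PWK by a log2 difference of -1.95 ± 0.10 (limma, adjusted p = 8.78e-31), that is 0.259 of the PWK level, and lower than WSB by -1.73 ± 0.09 (adjusted p = 3.24e-30). The PWK minus WSB difference of 0.22 ± 0.10 was not called (adjusted p = 0.0594).

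In kidney and lung the low strain for Gstt1 was WSB instead. Kidney values lay between 9.72 and 10.15 (median 9.93, n = 11) in CAST and between 10.02 and 10.63 (median 10.49, n = 12) in PWK, against 8.71 to 9.09 (median 8.95, n = 12) in WSB. No WSB kidney reached the range of the other strains. CAST minus WSB was 1.02 ± 0.06 (adjusted p = 1.34e-29) and PWK minus WSB was 1.53 ± 0.06 (adjusted p = 3.13e-43), and CAST was lower than PWK at -0.51 ± 0.06. Lung showed the same gap, with 9.67 to 10.32 (median 10.03, n = 10) in CAST and 9.80 to 10.30 (median 10.16, n = 12) in PWK, against 8.72 to 9.14 (median 8.98, n = 12) in WSB. The lung differences were 1.13 ± 0.07 for CAST minus WSB and 1.16 ± 0.07 for PWK minus WSB, while CAST minus PWK, -0.03 ± 0.07, was not called (adjusted p = 0.77). In brain, where Gstt1 was near the filter, CAST minus WSB was 0.28 ± 0.09 and PWK minus WSB 0.45 ± 0.10.

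Gstt2 was also low in CAST liver but not in CAST kidney. Its liver values lay between 8.15 and 9.50 (median 8.90) in CAST, between 9.87 and 10.37 (median 10.22) in PWK and between 9.20 and 9.66 (median 9.45) in WSB. PWK livers lay above all CAST and WSB livers, and CAST and WSB overlapped. CAST minus PWK was -1.32 ± 0.10 (adjusted p = 1.84e-22), CAST minus WSB -0.62 ± 0.09 and PWK minus WSB 0.70 ± 0.09. In kidney, CAST was the highest strain, with differences of 0.35 ± 0.07 from PWK and 0.29 ± 0.07 from WSB. In lung only CAST minus WSB was called, at 0.19 ± 0.07 (adjusted p = 0.0106), and not with animal-number runs as a block (adjusted p = 0.0707) or after quantile normalisation (0.0887).

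Gstt3, the third theta gene, was higher in WSB than in both other strains in liver. Liver values lay between 9.18 and 11.40 (median 10.51) in CAST and between 9.62 and 11.04 (median 10.61) in PWK, against 11.01 to 11.79 with a median of 11.65 in WSB. CAST minus WSB was -1.06 ± 0.12 (adjusted p = 4.78e-12) and PWK minus WSB -1.03 ± 0.13 (adjusted p = 1.12e-10), with overlapping ranges. CAST and PWK livers differed by -0.03 ± 0.14, which was not called (adjusted p = 0.889). Female liver means were 10.997 in CAST, 10.83 in PWK and 11.51 in WSB, and male means 9.998, 10.22 and 11.60. The gap to WSB was thus wider in males, and whether it differs between the sexes was not tested. In kidney the values were 10.46 to 10.74 (median 10.70) in CAST, above all of the 9.58 to 10.01 (median 9.89) in PWK and the 9.84 to 10.23 (median 10.03) in WSB. The kidney differences were 0.79 ± 0.05 for CAST minus PWK (adjusted p = 5.48e-26) and 0.60 ± 0.05 for CAST minus WSB. The lung difference of 0.16 ± 0.07 for CAST minus WSB (adjusted p = 0.0487) was lost under 5 of the alternatives and when any 1 of 33 arrays was left out.

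**Figure D2:**
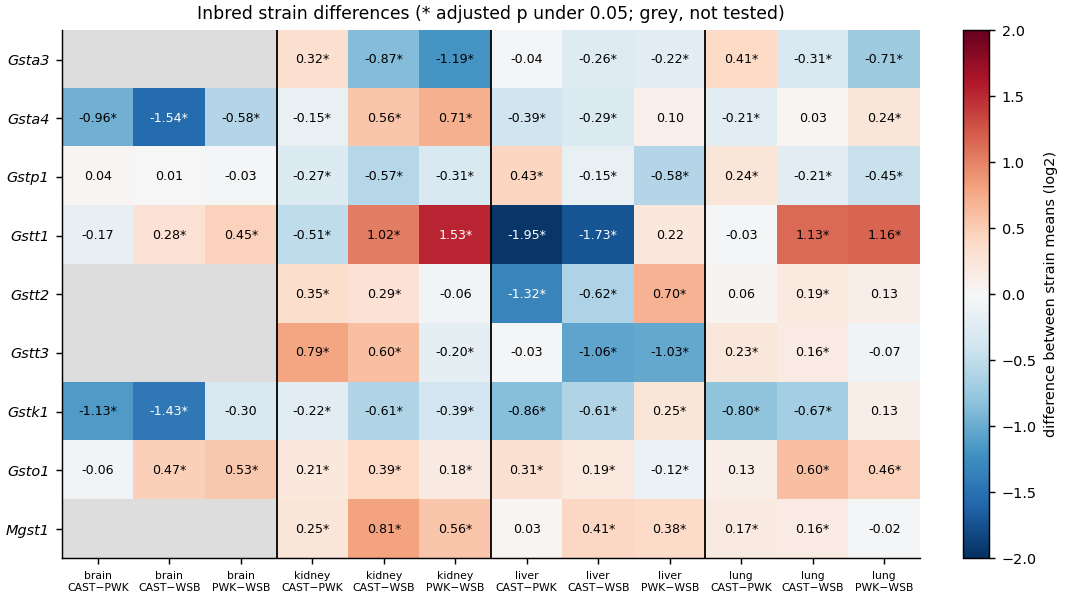
Differences between inbred strain means in log2 units for each member (rows) and each tissue and pair of strains (columns), the strain named first minus the other; an asterisk marks an adjusted p under 0.05 in limma and grey cells were not tested. Gstt1 changes sign between liver (CAST minus WSB -1.73) and kidney (1.02), and Gstk1 is below 0 in CAST minus PWK and CAST minus WSB in all 4 tissues.

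Of the alpha genes, Gsta4 differed most in brain. Brain values lay between 8.19 and 8.93 (median 8.62, n = 8) in CAST, between 9.43 and 9.79 (median 9.61, n = 6) in PWK and between 9.79 and 10.57 (median 10.15, n = 11) in WSB. Each strain occupied a range of its own, though the highest PWK value (9.787) and the lowest WSB value (9.795) nearly met. CAST minus WSB was -1.54 ± 0.10 (adjusted p = 5.36e-23), CAST minus PWK -0.96 ± 0.12 and PWK minus WSB -0.58 ± 0.11. In kidney WSB was the low strain, with 11.23 to 11.73 (median 11.50) in CAST and 11.39 to 12.03 (median 11.67) in PWK, against 10.56 to 11.26 (median 10.93) in WSB, a CAST minus WSB difference of 0.56 ± 0.05 and a PWK minus WSB difference of 0.71 ± 0.05. In liver CAST was below PWK by -0.39 ± 0.06 and below WSB by -0.29 ± 0.06. Beside these brain values, the mean level of the 5 choroid plexus markers, none of them highest in brain, lay between 7.16 and 7.67 log2 in CAST brains and between 7.69 and 8.41 in WSB brains, and 4 of the 4 tested were lower in CAST. The mean level of 4 oligodendrocyte markers lay between 11.19 and 11.78 in CAST and between 11.47 and 12.09 in WSB, with 3 of 4 lower in CAST. In brain 52.4% of all tested genes were called in CAST minus WSB, and the part of these cells in the Gsta4 difference was not tested.

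Gsta3 differed between strains mainly outside the liver. Kidney values lay between 8.44 and 9.19 (median 8.82) in CAST and between 7.71 and 9.14 (median 8.59) in PWK, against 9.23 to 10.09 (median 9.69) in WSB, which lay above every animal of the other strains. CAST minus WSB was -0.87 ± 0.10 (adjusted p = 2.61e-12), PWK minus WSB was -1.19 ± 0.10 (adjusted p = 3.78e-19) and CAST minus PWK was 0.32 ± 0.10. In lung the same order appeared at a smaller size, 0.41 ± 0.09 for CAST minus PWK, -0.31 ± 0.09 for CAST minus WSB and -0.71 ± 0.09 for PWK minus WSB. In liver, where the gene is highest, the called differences were -0.26 ± 0.06 for CAST minus WSB and -0.22 ± 0.06 for PWK minus WSB.

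Gstk1, the enzyme of mitochondria and peroxisomes, was lower in CAST than in PWK and WSB in all 4 tissues. In liver the strains did not overlap, with 12.20 to 12.37 (median 12.27) in CAST, 13.08 to 13.20 (median 13.15) in PWK and 12.80 to 12.97 (median 12.91) in WSB. CAST minus PWK was -0.86 ± 0.02 (adjusted p = 1.82e-54), CAST minus WSB was -0.61 ± 0.02 (adjusted p = 5.52e-46) and PWK minus WSB was 0.25 ± 0.02. In brain the differences were larger, -1.13 ± 0.18 for CAST minus PWK and -1.43 ± 0.15 for CAST minus WSB, on values of 8.06 to 8.57 (median 8.40) in CAST, 9.37 to 9.79 (9.44) in PWK and 9.40 to 10.11 (9.91) in WSB, where CAST lay below both others without overlap. In lung they were -0.80 ± 0.06 and -0.67 ± 0.06. In kidney they were -0.22 ± 0.05 and -0.61 ± 0.05. PWK was lower than WSB in kidney at -0.39 ± 0.05, and in brain that pair differed by -0.30 ± 0.17, which was not called (adjusted p = 0.149).

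**Figure D3:**
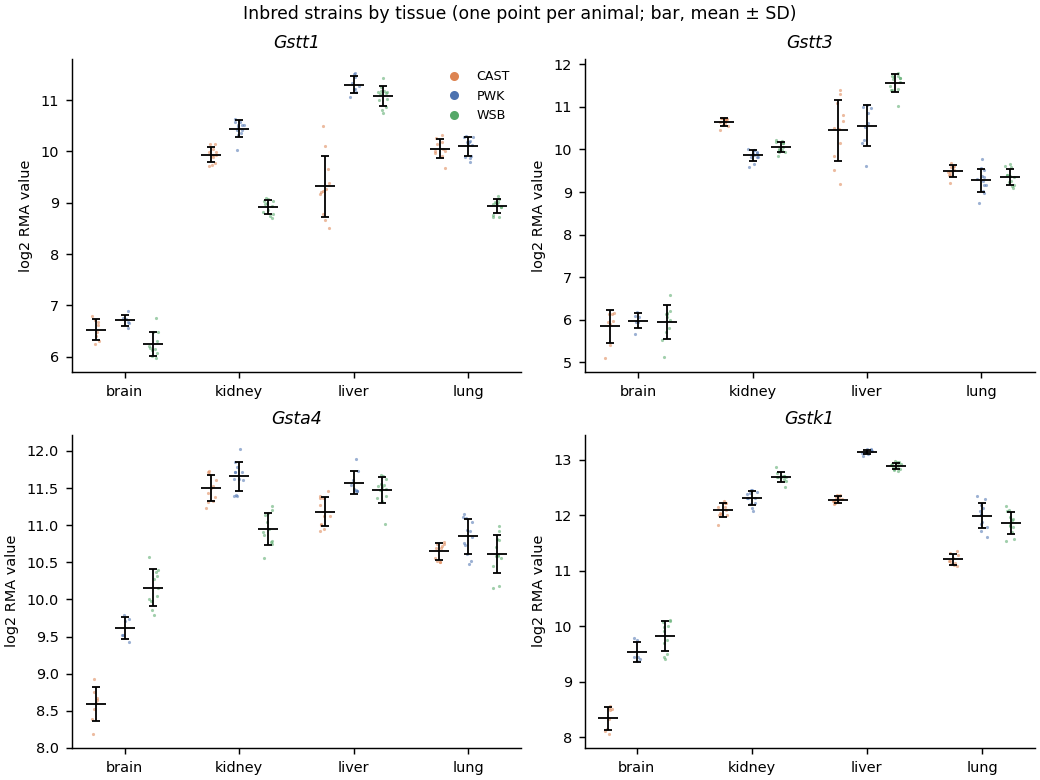
Log2 RMA value of Gstt1, Gstt3, Gsta4 and Gstk1 in CAST, PWK and WSB animals (coloured points, left to right within a tissue) in the 4 tissues; black bars are the mean ± SD. CAST livers lie below 10.50 for Gstt1 while the WSB animals are the low group in kidney and lung, and CAST is low for Gstk1 in every tissue.

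For Gstp1, the pi enzyme, limma called 0 of 3 strain differences in brain, with 0 at an unadjusted p under 0.05, and the largest was 0.04 ± 0.10. In kidney CAST was lowest, with 10.44 to 11.23 (median 10.92) in CAST, 11.02 to 11.28 (median 11.15) in PWK and 11.30 to 11.63 (median 11.44) in WSB. WSB kidneys lay above all others. The differences were -0.27 ± 0.06, -0.57 ± 0.06 and -0.31 ± 0.06 for CAST minus PWK, CAST minus WSB and PWK minus WSB. In liver PWK was lowest instead, at 0.43 ± 0.06 for CAST minus PWK and -0.58 ± 0.06 for PWK minus WSB (adjusted p = 6.04e-15), and the CAST minus WSB difference of -0.15 ± 0.06 (adjusted p = 0.0136) was not called with animal-number runs as a block (0.0596) or without the WSB liver replicate 1 (-0.11). In lung the order was the same as in liver, at 0.24 ± 0.06, -0.21 ± 0.06 and -0.45 ± 0.06.

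Gsto1, the thiol transferase, was lower in WSB than in CAST in all 4 tissues. The CAST minus WSB differences were 0.47 ± 0.06 for brain, 0.39 ± 0.04 for kidney, 0.19 ± 0.05 for liver and 0.60 ± 0.07 for lung. In lung the values lay between 10.80 and 11.20 (median 10.95) in CAST and between 10.52 and 11.14 (median 10.83) in PWK, against 9.95 to 10.80 (median 10.39) in WSB. CAST lungs lay just above all WSB lungs, and PWK overlapped both. The PWK minus WSB difference was 0.53 ± 0.06 in brain, 0.46 ± 0.06 in lung and 0.18 ± 0.04 in kidney. In liver it was -0.12 ± 0.05 (adjusted p = 0.042), a call that ended under 4 alternatives and when any 1 of 11 arrays was left out, while without PWK liver replicate 1 it was -0.20 and still called. Mgst1 was likewise lower in WSB than in CAST where tested, with 0.81 ± 0.10 in kidney (adjusted p = 5.08e-11), 0.41 ± 0.04 in liver and 0.16 ± 0.07 in lung. Kidney values of Mgst1 lay between 8.82 and 9.89 (median 9.46) in CAST and between 8.57 and 9.66 (9.17) in PWK, against 8.01 to 9.004 (8.61) in WSB, with some overlap of each pair. The lung call of Mgst1 (adjusted p = 0.0489) ended when any 1 of 41 arrays was left out, without a filter (0.0618), after quantile normalisation (0.0893) and with animal-number runs as a block (0.206). The kidney CAST minus PWK call of Mgst1, 0.25 ± 0.10, ended when any 1 of 10 arrays was left out (0.19 to 0.23) and with the block (adjusted p = 0.116). Its lung counterpart, 0.17 ± 0.07, ended when any 1 of 3 arrays was left out and with the block (0.152).

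Set against all genes, the members were called in the shares given here, and no test of these shares was made. In brain 2 of 5 tested members were called in CAST minus PWK, 4 in CAST minus WSB and 3 in PWK minus WSB, beside 40.9%, 52.4% and 40.4% of all tested genes. In kidney the counts were 9, 9 and 8 of 9 beside 60.1%, 59.6% and 60.7%. In liver they were 6, 9 and 7 of 9 beside 50.1%, 57.0% and 55.3%, and in lung 6, 8 and 5 of 9 beside 62.7%, 59.9% and 61.4%. Markers of other cells moved with some of these contrasts. In liver, 4 of 8 pericentral hepatocyte markers were higher and 2 lower in CAST than in PWK, and 6 higher and 2 lower in CAST than in WSB. Their mean level lay between 10.88 and 11.14 log2 in CAST, 10.68 and 10.92 in PWK, and 10.50 and 10.89 in WSB. In kidney, 4 of 5 tested brown fat markers were higher in CAST than in PWK and in WSB (medians 0.79 and 0.90), while proximal tubule markers were 3 higher and 3 lower of 10 in CAST minus PWK and 2 and 2 in the other pairs. In lung, 7 of 7 heart muscle markers were lower in PWK than in WSB, with a mean level of 8.80 to 11.85 in PWK and 10.32 to 12.21 in WSB. The part of these cells in the members' differences was not tested.

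Whether a strain difference itself depended on the tissue was tested over all arrays with an F-test in limma, and 26 of 27 tests were called. The background was 67.7% of all tested genes for CAST minus PWK, 71.1% for CAST minus WSB and 68.0% for PWK minus WSB, beside 8, 9 and 9 of 9 members. The span between the tissue with the highest and the lowest difference was 2.88 log2 for Gstt1 in CAST minus WSB (adjusted p = 3.04e-83) and 1.94 in CAST minus PWK (1.43e-41). It was 2.12 for Gsta4 in CAST minus WSB (8.17e-52), 1.70 for Gstt3 in CAST minus WSB and 1.69 for Gstt2 in CAST minus PWK. Mgst1 in CAST minus PWK was the test that was not called. Because 4 members were near background in brain, the test was repeated over kidney, liver and lung alone, an alternative chosen after seeing the data, and 23 of 27 were called. The Gstk1 CAST minus WSB difference then spanned 0.06 (adjusted p = 0.861), the Gsta4 CAST minus PWK difference 0.23 (0.144) and the Gsto1 CAST minus PWK difference 0.15 (0.261), none of them called, and the Gstt1 CAST minus WSB span stayed at 2.88 (5.74e-84).

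F1 animals were set against the mean of their inbred parents, the mid-parent value, on the log2 scale. The plain mean of the parents' unlogged signals lies above this value, the more so the wider the parents differ. Whether the F1 departed from that plain mean was not tested. Of 96 tests 36 were called, 28 with the F1 above the mid-parent value and 8 below it, and no difference reached 1 log2. With runs of consecutive animal numbers entered as a block 23 were called. Gstt3 in liver departed most. In the CAST and PWK family the F1 livers lay between 8.41 and 10.73 with a median of 9.42 (n = 21), set against 9.18 to 11.40 (median 10.51) in CAST and 9.62 to 11.04 (median 10.61) in PWK. Of these F1 livers 17 of 21 lay below the means of both parents and 9 below every parental animal. The F1 minus mid-parent difference was -0.89 ± 0.10 (limma, adjusted p = 1.38e-12), that is 0.54 of the mid-parent level. The F1 was low in both sexes, with means of 10.51 and 10.16 in CASTxPWK and PWKxCAST females, against 10.997 in CAST and 10.83 in PWK females, and 8.91 in males of both crosses, against 9.998 in CAST and 10.22 in PWK males.

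In the CAST and WSB family Gstt3 in liver was again below the mid-parent value, at -0.71 ± 0.09 (adjusted p = 3.97e-10). F1 livers lay between 8.60 and 11.24 with a median of 10.31 (n = 23), of which 12 were below both parental means. Expressed as a position where 1 is the level of the higher parent and -1 that of the lower, this F1 stood at -1.34. In the PWK and WSB family the difference was -0.26 ± 0.09 (adjusted p = 0.038), a call that ended under 4 alternatives, among them the block of animal numbers (0.332), and when any 1 of 10 arrays was left out. In kidney Gstt3 stood at the mid-parent value for the pairs with CAST, at positions of -0.14 and -0.03. Of all 35 positions that could be computed, where the inbred difference was called and at least 0.5 log2, 24 were above 0, 11 below and 34 between -1 and 1, with a median of 0.32. The plain mean of unlogged parental signals itself has a position above 0, so these counts do not by themselves show a lean to the higher parent.

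On the log2 scale Gstt1 lay towards the higher parent in the F1 of most pairs, and the limit of this scale given above applies. In kidney the difference from the mid-parent value was 0.18 ± 0.04 for CAST and PWK (adjusted p = 0.000296), 0.34 ± 0.04 for CAST and WSB (1.31e-10) and 0.40 ± 0.04 for PWK and WSB (9.33e-14), at positions of 0.72, 0.66 and 0.53. In the PWK and WSB family F1 kidneys lay between 9.81 and 10.32 (median 10.06, n = 22), set against 10.02 to 10.63 in PWK and 8.71 to 9.09 in WSB, so that no F1 kidney reached the WSB range. In lung the differences were 0.22 ± 0.05 for CAST and WSB and 0.29 ± 0.05 for PWK and WSB. In liver the CAST and PWK family stood at 0.35 ± 0.07 (adjusted p = 0.000182) with F1 values of 10.20 to 10.99 (median 10.63), below all PWK livers and overlapping only the top of the CAST range. The CAST and WSB family in liver stood at -0.06 from the mid-parent value, which was not called (adjusted p = 0.57).

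**Figure D4:**
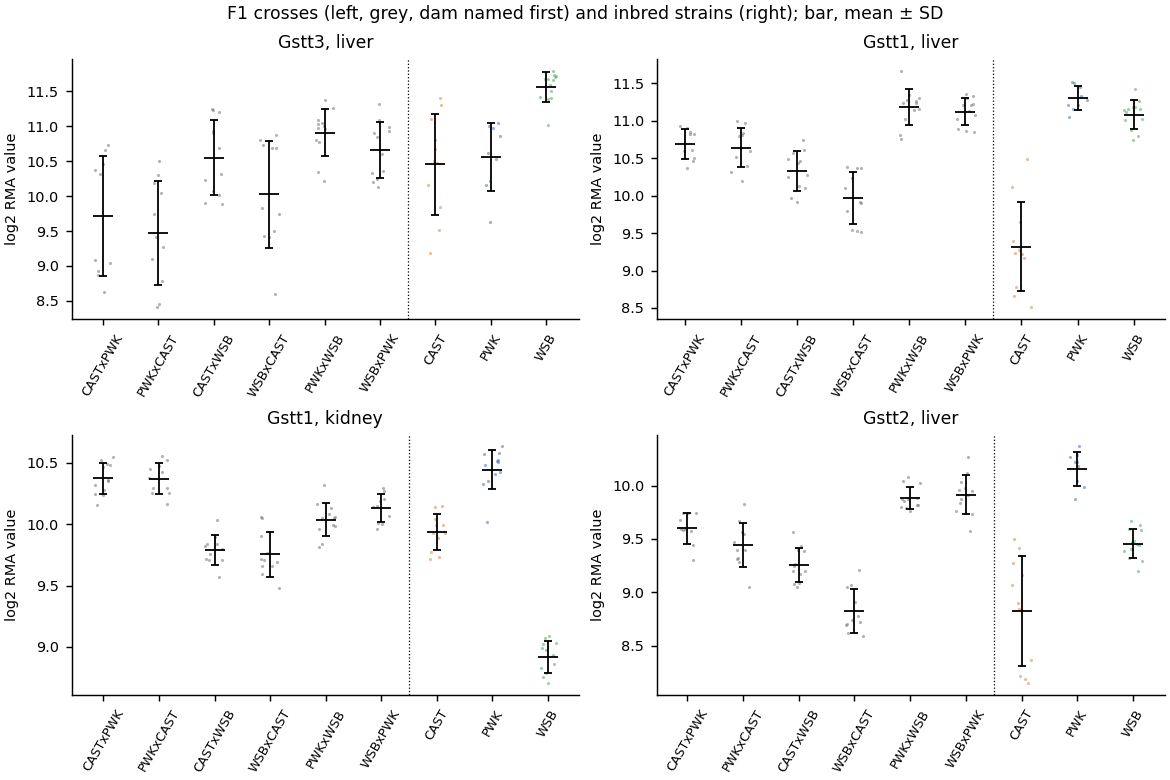
Log2 RMA value (vertical axes) of Gstt3 in liver, Gstt1 in liver and kidney and Gstt2 in liver by cross, F1 crosses in grey on the left with the dam named first and inbred strains in colour on the right; black bars are the mean ± SD. For Gstt3 in liver the CASTxPWK and PWKxCAST animals have a joint median of 9.42, below the medians of CAST (10.51) and PWK (10.61).

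Mgst1 in liver was above the mid-parent value in all 3 families, by 0.23 ± 0.03 for CAST and PWK (adjusted p = 1.27e-08), 0.15 ± 0.03 for CAST and WSB and 0.17 ± 0.03 for PWK and WSB. In the CAST and PWK family the F1 livers lay between 12.41 and 12.82 (median 12.65), against 12.28 to 12.60 in CAST and 12.31 to 12.52 in PWK, and 15 of 21 lay above every parental animal. Gstk1 F1 livers lay between the parental ranges in the families with CAST, at 0.07 ± 0.02 and 0.06 ± 0.01 from the mid-parent value and positions of 0.17 and 0.18. In brain Gstk1 was below the mid-parent value for PWK and WSB at -0.39 ± 0.11 (adjusted p = 0.0146) and above it for CAST and WSB at 0.28 ± 0.11 (0.0362). Both brain calls ended with the block of animal numbers (0.0722 and 0.0642), and the second also with array weights (0.0767), with no filter (0.0525) and when any 1 of 7 arrays was left out (differences of 0.22 to 0.27). Gstp1 livers stood at 0.23 ± 0.04 in the PWK and WSB family, a position of 0.80, and at 0.19 ± 0.04 in the CAST and PWK family. Gsta4 in kidney went both ways, with -0.21 ± 0.04 for CAST and PWK, -0.22 ± 0.04 for CAST and WSB and 0.21 ± 0.04 for PWK and WSB.

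By tissue, with the families ordered as CAST with PWK, CAST with WSB and PWK with WSB, limma called 0, 3 and 1 of 5 members in brain, beside 18.9%, 37.1% and 10% of all tested genes. The count of 0 stood beside 1 member at an unadjusted p under 0.05. In kidney 3, 3 and 3 of 9 were called, beside 33.7%, 42.7% and 37.4%. In liver 5, 4 and 4 of 9 were called, beside 18.7%, 25.3% and 17.0%, and in lung 1, 3 and 6 of 9, beside 19.5%, 30.5% and 37.2%. The 10 calls in lung were all above the mid-parent value. With the block of animal numbers those of Gsta4, Gstk1, Gstt2 and Gstt3 for PWK and WSB ended (limma, adjusted p = 0.0606, 0.159, 0.3 and 0.358). So did Gstk1 for CAST and PWK (0.316) and Gsto1 for CAST and WSB (0.0653). Over all genes in lung, called F1 differences were 1135 above and 1065 below for CAST and PWK. They were 1683 and 1757 for CAST and WSB, and 2564 and 1632 for PWK and WSB.

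Reciprocal F1 crosses share the autosomal genotype and differ in the dam. Limma called 7 of 96 differences between them, 6 higher and 1 lower in the cross named first. The groups overlapped in all 7, and overlap was not counted over all genes. With the same block limma called 0 differences, with 8 at an unadjusted p under 0.05, and with array weights it called 14. In liver, 4 of 9 members were higher in CASTxWSB than in WSBxCAST, beside 5.62% of all tested genes, and these included all 3 theta genes. Gstt2 livers lay between 9.04 and 9.56 (median 9.22, n = 12) in CASTxWSB and between 8.59 and 9.21 (median 8.74, n = 11) in WSBxCAST, which overlapped at their edges. The difference was 0.43 ± 0.09 (adjusted p = 0.000541, and 0.142 with the block). Gstt3 differed by 0.46 ± 0.13 (0.0154, and 0.528 with the block), Gstt1 by 0.34 ± 0.10 (0.0174, and 0.548) and Gstp1 by 0.23 ± 0.06 (0.00525, and 0.436). The Gstt3 difference was 0.38 and not called without WSBxCAST liver replicate 5. Its call also ended under the additive model of cross and sex (limma, adjusted p = 0.0653).

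Gstp1 was also higher in CASTxPWK than in PWKxCAST livers, the single call of 9 beside 9.32% of all tested genes. The values lay between 12.10 and 12.95 (median 12.53, n = 10) in CASTxPWK and between 11.91 and 12.59 (median 12.29, n = 11) in PWKxCAST, a difference of 0.31 ± 0.06 (adjusted p = 0.000281, and 0.219 with the block). In kidney Gsta4 was the single call of 9 in CASTxWSB minus WSBxCAST, with 10.91 to 11.47 (median 11.19) in CASTxWSB and 10.39 to 11.24 (median 11.04) in WSBxCAST, at 0.30 ± 0.05 (0.000125, and 0.212 with the block), beside 2.44% of all tested genes. In lung Gstt2 was the single call of 9 in CASTxWSB minus WSBxCAST, at -0.22 ± 0.06 (0.006, and 0.0969 with the block), beside 38.8% of all tested genes. In that lung contrast 6 of 7 lymphocyte markers were lower in CASTxWSB, with a mean level of 7.12 to 8.21 in CASTxWSB and 8.11 to 8.73 in WSBxCAST, and their part in the Gstt2 difference was not tested. In the other reciprocal contrasts limma called 0 members. In brain these 0 calls stood beside 0.151%, 0.779% and 0.248% of all tested genes for CASTxPWK minus PWKxCAST, CASTxWSB minus WSBxCAST and PWKxWSB minus WSBxPWK, with 1, 1 and 2 of 5 members at an unadjusted p under 0.05. In kidney they stood beside 3.03% for CASTxPWK minus PWKxCAST and 1% for PWKxWSB minus WSBxPWK (0 and 1 members at that p), in liver beside 1.22% for PWKxWSB minus WSBxPWK (1 member), and in lung beside 0.611% for CASTxPWK minus PWKxCAST and 8.40% for PWKxWSB minus WSBxPWK (0 members in both).

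The sexes differed in liver for 8 of 9 members, 6 higher and 2 lower in females, beside 13.8% of all tested genes. Gstt3 differed most. Female livers lay between 9.75 and 11.74 with a median of 10.92 (n = 49), against 8.41 to 11.79 with a median of 10.14 in males (n = 52), with wide overlap over the 9 crosses. The female minus male difference was 0.85 ± 0.06 (limma, adjusted p = 3.99e-21), 1.80-fold. Within crosses females were higher in 8 of 9, by 1.595 in CASTxPWK, 1.34 in WSBxCAST, 1.25 in PWKxCAST and 0.999 in CAST. In WSB the difference was -0.10, with means of 11.51 in females and 11.60 in males. Whether the crosses differ in this was not tested. The neighbouring Gstt1 was higher in females by 0.31 ± 0.05 (adjusted p = 1.59e-07), by 0.80 in CAST and by -0.01 in WSB, and Gstt2 by 0.17 ± 0.04 (0.00224).

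Gstp1 went the other way in liver. Female livers lay between 11.71 and 12.84 with a median of 12.24, against 12.03 to 13.01 with a median of 12.65 in males. The difference was -0.39 ± 0.03 (adjusted p = 1.98e-22), and females were lower in 9 of 9 crosses, by values between -0.50 and -0.22. Mgst1 was lower in female livers by -0.07 ± 0.02 (0.0128). Gsta3, Gsto1 and Gstk1 were higher in female livers by 0.13 ± 0.03, 0.11 ± 0.02 and 0.05 ± 0.01. Beside these values, 4 of 8 pericentral hepatocyte markers were higher and none lower in female livers, with a median difference of 0.08, and 0 of 9 hepatocyte markers were called. The part of these cells in the sex differences was not tested.

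In kidney 4 of 9 members were called, all higher in females, beside 10.9% of all tested genes. Gsta4 kidneys lay between 10.87 and 12.03 (median 11.50, n = 51) in females and between 10.39 and 11.79 (median 11.23, n = 51) in males, with females higher in 9 of 9 crosses and a difference of 0.30 ± 0.02 (adjusted p = 2.58e-18). Gstt3 differed by 0.11 ± 0.02, Gstt1 by 0.09 ± 0.03 (0.0266, and 0.0695 with the block of animal numbers) and Gsto1 by 0.08 ± 0.02. Limma called 0 of 5 members in brain, beside 0.0708% of all tested genes, and 0 of 9 in lung, beside 3.52%, with 2 members at an unadjusted p under 0.05 in each tissue.

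**Figure D5:**
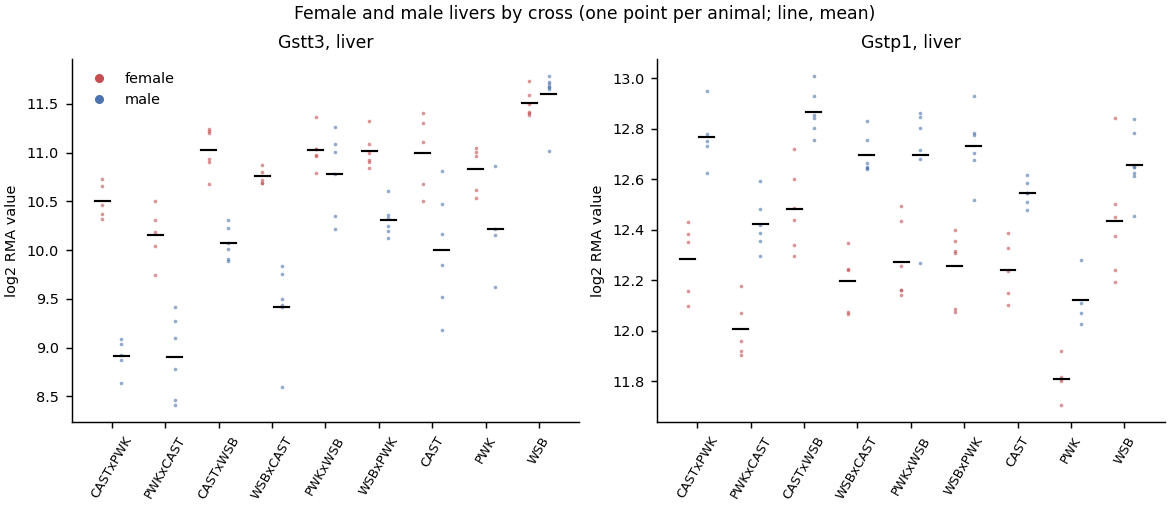
Log2 RMA value (vertical axes) of Gstt3 and Gstp1 in liver for females (red, left) and males (blue, right) of each cross, 1 point per animal, with black lines at the mean. Females are higher for Gstt3 in every cross but WSB, and lower for Gstp1 in all 9 crosses.

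Other genes of glutathione metabolism were described from lists, by counts of called genes and medians. Of all tested genes 57.0% in liver and 59.6% in kidney were called in CAST minus WSB, and 50.1% in liver in CAST minus PWK. No test of the list counts against these shares was made. Glutathione is built by glutamate-cysteine ligase (Gclc, Gclm) and glutathione synthetase (Gss) and recycled by glutathione reductase (Gsr). Of 11 tested genes of synthesis and recycling in liver, 3 were higher and 5 lower in CAST than in WSB (median -0.03, against 0.04 over all tested genes). Among them were Gclm at -0.35 ± 0.02 (limma, adjusted p = 6.40e-23), Gsr at -0.33 ± 0.03 and Gss at -0.45 ± 0.05. In kidney none was higher and 7 of 11 lower in the same contrast (median -0.13 against 0.04), with Gsr at -0.35 ± 0.04. Gsr was also lower in CAST than in WSB in brain (-0.90 ± 0.05) and lung (-0.91 ± 0.04). In CAST minus PWK the liver counts were 3 higher and 3 lower of 11, with Oplah, which opens oxoproline in glutathione turnover, at 0.79 ± 0.06, and Ggt5, a gamma-glutamyl transferase, at -1.03 ± 0.10.

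Targets of NRF2 outside the transferases moved both ways. In liver 9 of 15 were higher and 4 lower in CAST than in PWK (median 0.14 against -0.01 over all tested genes), among them the epoxide hydrolase Ephx1 at 1.03 ± 0.05 (adjusted p = 6.63e-31), Pgd at 0.55 ± 0.05 and Srxn1 at 0.58 ± 0.07. In kidney 4 of 16 were higher and 6 lower in CAST than in WSB (median -0.01 against 0.04), with the quinone reductase Nqo1 at -1.67 ± 0.08 (adjusted p = 2.03e-35). Mu-class transferases were higher in CAST than in PWK livers for 5 of 6 and lower for none (median 0.47 against -0.01), led by Gstm2 at 2.41 ± 0.11. In CAST minus WSB they were 4 higher and 1 lower (median 0.37 against 0.04), the lower gene being Gstm3 at -1.99 ± 0.12. Of 7 other transferases and related genes tested in liver, 5 were higher and 1 lower in CAST than in WSB (median 0.94 against 0.04). Among them were Gstp3, a pi-class gene, at 2.67 ± 0.09, Mgst2, a microsomal enzyme, at 2.81 ± 0.15, and Ptges, a prostaglandin synthase of the Mgst family, at 2.33 ± 0.10.

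Of 9 tested glutathione peroxidases and redoxins in liver, 2 were higher and 3 lower in CAST than in WSB (median 0.01 against 0.04), with Gpx3, the plasma peroxidase, at -1.28 ± 0.26, and Glrx2, the mitochondrial glutaredoxin, at 0.46 ± 0.04. In this contrast 57.0% of all tested genes were called, and their median of 0.04 also stands beside the list medians that follow. Of 11 genes of conjugate export and mercapturate formation in liver, 2 were higher and 4 lower (median -0.10), and Nat8, which acetylates cysteine conjugates in the last step to mercapturates, was higher in CAST by 3.76 ± 0.13 (adjusted p = 1.40e-45). Of 8 regulators in liver, 3 were higher and 1 lower in CAST than in WSB (median -0.03), among them Keap1, which holds NRF2 in check, at 0.47 ± 0.04, Nr1i2, the pregnane X receptor, at 0.34 ± 0.07, and Arnt, the partner of the aryl hydrocarbon receptor, at -0.24 ± 0.05. Tyrosine breakdown, the pathway in which the zeta enzyme acts, had 1 gene higher and 3 lower of 4 in CAST than in WSB livers (median -0.09). Fah, the enzyme that acts just after it, was lower in CAST than in WSB by -0.40 ± 0.03 in liver, -0.62 ± 0.03 in kidney, -1.26 ± 0.07 in brain and -0.37 ± 0.07 in lung.

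For each member the genes whose pattern over the 9 cross means was most alike were found in its tissue of highest level, as a description over 9 points and 11291 other genes. In liver the closest to Gstk1 was 1110032A03Rik, on chromosome 9, with a Pearson r of 0.996, followed by Tmem234 and Angel1 at 0.986 each. The same gene was also among the closest to Gstt1 (0.980), after Nhej1 (0.984) and beside Crym (0.980). Gstt3 was closest to Ppif (0.977), Txnrd2 (0.968) and Mov10 (0.964). The closest genes were Inhbb for Gsta3 (0.956), Lysmd3 for Gsta4 (0.976), Srms for Gstp1 (0.946), Mfn2 for Gsto1 (0.982) and Aox1 for Mgst1 (0.975), all in liver, and Tor3a for Gstt2 in kidney (0.967).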

How the data were processed

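RNA from brain, kidney, liver and lung was hybridised to Affymetrix Mouse Gene 1.1 ST arrays, 386 in all. The deposited table holds log2 values for 35556 transcript clusters, and per the submitters' processing notes they came from RMA in Affymetrix Expression Console. Whether RMA was run over all tissues at once: not given in the sources used here. Values were used as deposited. Clusters were named from GEO's platform annotation: 21218 carry 1 symbol, 1881 several and 12457 none. The cluster with the highest mean stood for each of 18820 genes. For the fits per tissue, genes below the 40th percentile of mean level in that tissue were left out, which kept 11292. For the tissue and strain-by-tissue tests the same percentile was taken on the mean over all arrays, which also kept 11292. limma 3.58.1 in R 4.3.3 (lmFit, contrasts, eBayes with trend) was fitted across all genes to cross-by-sex means per tissue, and to cross-by-tissue means over all arrays for tissue contrasts. p-values were adjusted by Benjamini-Hochberg with a threshold of 0.05. Fits were tested on simulated data. Array medians lay between 5.89 and 6.36, and the number of arrays limits the precision. Alternatives were array weights, quantile normalisation, other filters, averaging clusters, an additive model, leaving out each array, and blocks of 26 runs of animal numbers (a gap of at most 3) or of animal. The labels give no replicate numbers, so replicate numbers only name arrays. Named genes were the members, up to 3 called genes of each list with the smallest p, and the 3 most alike by Pearson r. The members and lists were chosen with earlier results of these data known.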

Additional observations from a re-analysis of the deposited data

Results flagged for a closer look

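Some single arrays stood far from the others of their cross and tissue, judged by Dixon's gap test in groups of 4 to 10 arrays. Of 117 combinations of a member and a group 6 held such an array, and chance picks out about 1 in 20. The members were measured on the same arrays, so these combinations are not independent. Gsta3 was at 5.78 log2 in CAST brain replicate 3, with the nearest other array at 5.03. Gstp1 was at 10.95 in CASTxPWK brain replicate 4 (nearest 11.30) and at 11.04 in PWKxCAST lung replicate 10 (nearest 11.23). Gstt3 was at 9.93 in PWKxWSB lung replicate 7 (nearest 9.62). Mgst1 was at 12.43 in CASTxPWK liver replicate 5 (nearest 12.59) and at 5.85 in PWKxCAST brain replicate 7 (nearest 6.21).

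The strain differences that depended on the tissue by limma's F-test are given by their span, the highest minus the lowest difference over the 4 tissues in log2 units. For CAST minus PWK the spans were 0.47 for Gsta3, 0.87 for Gsta4, 0.98 for Gstk1, 0.38 for Gsto1, 0.72 for Gstp1, 1.94 for Gstt1, 1.69 for Gstt2 and 0.93 for Gstt3. For CAST minus WSB they were 0.61 for Gsta3, 2.12 for Gsta4, 0.87 for Gstk1, 0.41 for Gsto1, 0.56 for Gstp1, 2.88 for Gstt1, 0.92 for Gstt2, 1.70 for Gstt3 and 0.64 for Mgst1. For PWK minus WSB they were 0.96 for Gsta3, 1.25 for Gsta4, 0.64 for Gstk1, 0.64 for Gsto1, 0.59 for Gstp1, 1.31 for Gstt1, 0.94 for Gstt2, 1.03 for Gstt3 and 0.58 for Mgst1. The adjusted p-values lay between 3.04e-83 and 0.0199.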

How the results depend on the processing

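The counts of called differences among the members lay between 68 and 79 for the inbred strains (76 as reported), 11 and 15 for sex (12), 23 and 26 for strain by tissue (26) and 52 and 53 for tissue (53) over the alternatives run. With animal-number runs as the block the F1 count was 23 and the reciprocal count 0, and with array weights the reciprocal count was 14. Leaving out 1 array gave 73 to 79, 34 to 39, 6 to 8 and 12 to 13 calls for inbred, F1, reciprocal and sex contrasts. Among single results 1 turned its direction, the kidney minus liver difference of Gsta4, at 0.0348 after quantile normalisation. With animal as the replicate block the counts for strain by tissue and for tissue were 26 and 53. Over all genes the block of runs gave 0.01 to 0.35 of the reported counts for reciprocal contrasts, 0.25 to 0.77 for F1 contrasts and as little as 0.48 for sex. Array weights gave 1.41 to 13.86 of the reciprocal counts and 1.30 to 2.59 of those for sex. The additive model gave 0.36 to 0.94 of the reciprocal counts, a filter at the 60th percentile 0.43 to 0.87 of them and 0.64 to 0.72 of the inbred ones, and no filter 1.56 to 1.66 of the tissue ones. Correlations within runs were 0.085 for brain, 0.258 for kidney, 0.212 for liver and 0.211 for lung. The cause of these changes was not tested. Signals near background in brain limit what can be said there.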
